A study of Sus scrofa with 14 samples.

Results

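The genes described here are regulators of apoptosis, the ordered self-destruction of a cell. They were 9 genes chosen by name: the survival proteins BCL2, BCL2L1 and MCL1, the pore formers BAX and BAK1, the death receptor FAS, the initiator caspase CASP8, the inhibitor of translation PDCD4 and the inhibitor of apoptosis BIRC3. In the files, 5 of the 9 carried their symbol in at least 1 matrix, and BAK1 and FAS were present under an identifier without a symbol and were named through the gene names of the reference. This gave 7 of the 9 in some file and 6 in the nuclei and milk matrices, where the gland files together list 28711 gene identifiers. MCL1 was found in the tissue sections alone, and BCL2 and BAX were not analysed here.

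Nuclei came from mammary glands of 10 multiparous sows on a normal diet, 2 for each stage, namely d 90 of pregnancy (G90), lactation on d 0 (L0) and d 20 (L20), and natural involution after 2 d (PI2) and 7 d (PI7). There was also 1 spatial section of G90 and of PI2, and cells of 1 colostrum (L0) and 1 mature milk (L20) sample, whose labels give the tissue as mammary gland while the study describes them as milk cells. The labels name no treatment, and each gland is 1 animal.

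A cell can be driven into apoptosis from outside or from within. In the first route a ligand such as FASLG binds a death receptor such as FAS, which activates CASP8 through an adaptor. In the other, BAX and BAK1 open the outer membrane of mitochondria unless survival proteins such as BCL2L1 and MCL1 hold them back. BIRC3, also called cIAP2, is a ubiquitin ligase that acts in TNF receptor and NF-κB signalling, and its transcript is induced by that signalling. PDCD4 binds the helicase of the translation initiation complex. Involution of the mammary gland after milk removal stops is a textbook setting of epithelial apoptosis.

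On the Sscrofa11.1 assembly, with gene bounds from RefSeq, the 7 measured genes lie apart from each other. BCL2L1 (ENSSSCG00000035357) spans positions 35366139 to 35415798 of chromosome 17. BAK1 (ENSSSCG00000001516) spans 29808849 to 29815345 of chromosome 7, and MCL1 (ENSSSCG00000039314) spans 98562092 to 98567014 of chromosome 4. FAS (ENSSSCG00000010448) and PDCD4 (ENSSSCG00000010627) are both on chromosome 14, at 100927305 to 100954781 and 121271824 to 121334767. CASP8 (ENSSSCG00000028157) spans 104923659 to 104948470 of chromosome 15. The identifier called BIRC3 here (ENSSSCG00000027529), at 33003570 to 33020252 of chromosome 9, carries the symbol BIRC3 in the nuclei and milk files and the symbol of its paralog BIRC2 in the section files, so the assignment between these similar genes is uncertain.

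The values are counts of unique molecular identifiers (UMIs), each standing for 1 captured RNA molecule. Levels are given as UMIs per 1000000 UMIs (CPM) of all nuclei, or of a class of nuclei, in a gland. Total UMIs per gland ranged from 18962138 to 53165191, and 126833 nuclei were kept. A nucleus was gated into a class by its marker genes, none of them described here, and 76.4% of nuclei could be gated. Pairs of gland libraries shared between 0.55% and 1.23% of their barcodes and the 2 milk libraries 1.52%, whereas all 2248 spot barcodes of the PI2 section, which come from a fixed set, also occurred at G90. Caseins, the milk proteins, took 1.06% and 0.775% of UMIs in the L0 glands and 0.121% and 0.806% in the G90 glands, but 0.0696% and 0.0104% in the L20 glands, which goes against the label of full lactation. The involution glands held 0.0384% and 0.0955% (PI2) and 0.0114% and 0.0197% (PI7). The differences between classes are therefore also given without the L20 glands. Those of involution against lactation in the whole gland and in epithelial nuclei are also given against L0 alone. There the L20 glands stay in the fit but not in the contrast. In whole-gland values, fewer cells of a type and less RNA per cell cannot be told apart.

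FAS had its highest class median in nuclei gated as T and NK cells, the lymphocytes other than B cells. There FAS ranged from 0 to 219.9 CPM over the 10 glands, with a median of 130.2 CPM. The 0 came from L20 replicate 1, which had only 34 such nuclei, so that up to 101 CPM was allowed (3 UMIs), and the lowest of the other glands was PI2 replicate 1 at 58.4 CPM. Endothelial nuclei followed with 9.48 to 109.6 CPM and a median of 33.4 CPM, and the T and NK level was the higher of both in 8 of 10 glands. B and plasma nuclei, also lymphocytes, had a median of 14.9 CPM, beside 23.0 CPM in myoepithelial nuclei and 18.9 CPM in macrophages. Macrophages exceeded B and plasma nuclei in only 4 of 8 glands. The B and plasma glands at 0 allow 54.0 to 133 CPM each (3 UMIs), so this order was not settled. Epithelial nuclei held 3.70 to 21.0 CPM, a median of 9.91. After nuclei under 1000 UMIs had been left out (1824 of 3618 T and NK nuclei and 6499 of 67893 epithelial ones) and the others thinned to 1000 UMIs, FAS was seen in 10.9% of T and NK nuclei and in 0.909% of epithelial nuclei. Over all nuclei without thinning the shares were 11.3% and 2.02%, at median depths of 995.5 and 2321 UMIs. Thinned in the same way, FAS was seen in 2.98% of B and plasma nuclei and in 1.97% of both macrophage and myoepithelial nuclei. In edgeR's quasi-likelihood test with the sow as a block, where each class was set against the mean of the other classes over 11214 genes, FAS was higher in T and NK nuclei (log2 fold change 2.73 ± 0.24 SE, adjusted p = 2.9e-16). It was lower in epithelial nuclei (-1.23 ± 0.28, adjusted p = 0.00011) and in fibroblasts (-1.02 ± 0.30, adjusted p = 0.0062). Without both L20 glands these 3 values were 2.94, -1.58 and -1.05, all called. The fibroblast value came under the fold limit without L0 replicate 1 (-0.91), L0 replicate 2 (-0.997) or PI2 replicate 2 (-0.95) and with no limit on other classes in the gate (-0.95), and the epithelial one with no filter on low counts (-0.976).

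Over all 6 genes and 8 classes, 40 tests could be made, because BAK1 was removed by the filter on low counts. A gene was called at a Benjamini-Hochberg adjusted p under 0.05 and an absolute log2 fold change over 1, and 9 of the 40 were called. The share of all genes called in the same classes was 17.5% in T and NK, 26.2% in epithelial, 13.3% in fibroblast, 16% in endothelial, 21.7% in macrophage, 11.2% in B and plasma, 9.68% in mural and 13.1% in myoepithelial nuclei. With both L20 glands left out, 35 tests could be made, since mural nuclei then came from too few glands, and 7 were called.

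**Figure D1:**
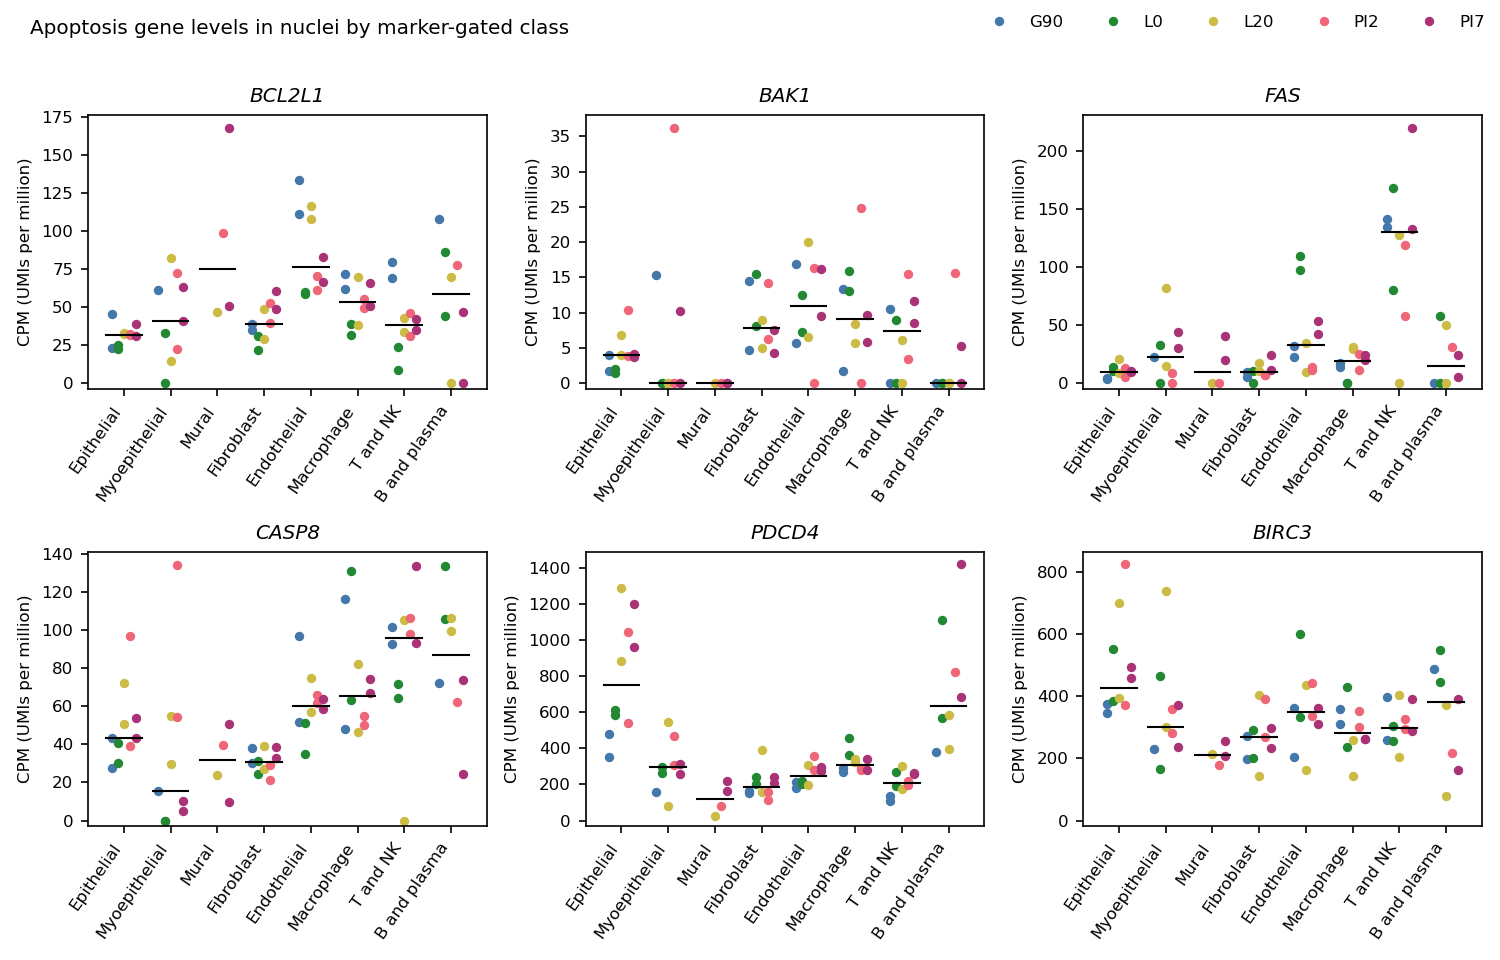
Level of 6 apoptosis genes in each marker-gated class of nuclei, in CPM on linear axes that differ between panels. Each point is 1 gland with at least 20 nuclei of the class, coloured by stage, and the black line is the median over glands. FAS points of T and NK nuclei lie mostly above all other classes, with 1 gland at 0, and PDCD4 and BIRC3 medians are highest in epithelial nuclei.

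CASP8, the caspase that FAS recruits, had its highest class median in the same cells. T and NK nuclei ranged from 0 to 133 CPM with a median of 95.6 CPM, the 0 again in L20 replicate 1. B and plasma nuclei were next with a median of 86.6 CPM, and T and NK nuclei exceeded them in only 5 of 8 glands, so these neighbours could not be separated. Macrophages had a median of 65.2 CPM, endothelial nuclei 59.9, epithelial nuclei 43.5, mural nuclei 31.6, fibroblasts 30.7 and myoepithelial nuclei 15.3. CASP8 was higher in T and NK nuclei than in the other classes (log2 fold change 1.01 ± 0.18, adjusted p = 5.6e-06) and lower in myoepithelial nuclei (-1.17 ± 0.35, adjusted p = 0.0098). Without both L20 glands these were 1.02 and -1.24, both called. The first of these lay at the fold limit and fell below it in 10 of 17 alternatives, with values of 0.76 to 1.15 over all 17. The glands whose removal did this were G90 replicate 1 (0.999), L20 replicate 2 (0.91), PI2 replicate 1 (0.898) and both of PI7 (0.86 and 0.76). The myoepithelial value rested on 20 UMIs in 490 nuclei and was lost without PI7 replicate 1 (-0.93, adjusted p = 0.056) and, at the fold limit, in DESeq2 (-0.998).

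PDCD4 had its highest class median in epithelial nuclei. Its epithelial level ranged from 355 to 1289 CPM with a median of 751 CPM, and B and plasma nuclei ranged from 378 to 1420.3 CPM with a median of 633 CPM. Epithelial nuclei were higher in 5 of the 8 glands that had both, so their order was not settled. B and plasma nuclei in turn exceeded macrophages, with a median of 307 CPM, in 8 of 8 glands. PDCD4 was higher in epithelial nuclei (log2 fold change 1.88 ± 0.12, adjusted p = 3.5e-22) and in B and plasma nuclei (1.06 ± 0.16, adjusted p = 6.8e-07), and lower in mural nuclei (-1.54 ± 0.30, adjusted p = 8.7e-05). Without the L20 glands the epithelial difference was 1.36 (adjusted p = 1.5e-14) and the B and plasma one 1.13, and mural nuclei could not be fitted. The B and plasma difference dropped below the fold limit in 8 of 16 alternatives, among them the removal of L0 replicate 2 (0.94), L20 replicate 2 (0.99), either PI2 gland (0.87 and 0.95) or either PI7 gland (0.90 and 0.72). Thinned to 1000 UMIs in the same way, PDCD4 was seen in 43.3% of epithelial, 41.7% of B and plasma and 14.6% of fibroblast nuclei. The shares over all nuclei without thinning were 64.8%, 39.2% and 24.3%, and the B and plasma shares come from different nuclei, since 276 of 543 were too shallow to thin.

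BIRC3 differed less between classes. The epithelial level ranged from 345 to 826 CPM with a median of 426 CPM, and the class medians went down without a clear step through B and plasma (382), endothelial (348), myoepithelial (302), T and NK (299), macrophage (282) and fibroblast nuclei (269.6) to mural nuclei (210.2). Of these neighbours, B and plasma nuclei exceeded endothelial nuclei in only 3 of 8 glands and endothelial nuclei exceeded myoepithelial nuclei in 4 of 9. BIRC3 was higher in epithelial nuclei, with a log2 fold change of 1.003 ± 0.13 (adjusted p = 2.1e-10) that barely passed the fold limit. It was 0.66 without the L20 glands (adjusted p = 3.8e-05), and it stayed over the limit in 3 of 17 alternatives. Removing any 1 gland other than PI2 replicate 2 brought it to between 0.82 and 0.99. The direction was the same in all 17.

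BCL2L1, which encodes the survival protein BCL-xL, had its highest class median in endothelial nuclei. Its endothelial level ranged from 58.4 to 134 CPM with a median of 76.8 CPM, beside 74.9 CPM in the mural nuclei of 4 glands. Endothelial nuclei exceeded mural nuclei in 2 of these 4. B and plasma nuclei (58.5 CPM) and macrophages (53.2 CPM) followed, the former being higher in 4 of 8 glands. The epithelial level was the lowest of the class medians at 32.0 CPM, with a range of 22.9 to 45.6 CPM. The endothelial difference of 0.92 ± 0.15 (adjusted p = 6.7e-07) and the epithelial one of -0.56 ± 0.16 (adjusted p = 0.0014) were past the p limit but short of the fold limit, also without the L20 glands (0.85 and -0.67). The epithelial value was -0.31 with no filter on low counts and then missed the p limit (adjusted p = 0.16, from 1.0e-11 to 0.16 over the alternatives). The endothelial one passed both limits in 6 of 17 alternatives, among them the removal of L20 replicate 2 (1.02), PI2 replicate 1 (1.11), PI2 replicate 2 (1.02), PI7 replicate 1 (1.07) or PI7 replicate 2 (1.05).

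BAK1, the pore former, was too sparse to rank. Its class medians were 11.03 CPM in endothelial, 9.09 in macrophage, 7.88 in fibroblast, 7.40 in T and NK and 3.96 in epithelial nuclei, and 0 in the other 3 classes. Endothelial nuclei exceeded macrophages in 6 of 10 glands. Mural nuclei held 0 BAK1 UMIs among 292175, which allows a level of up to 10.3 CPM.

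**Figure D2:**
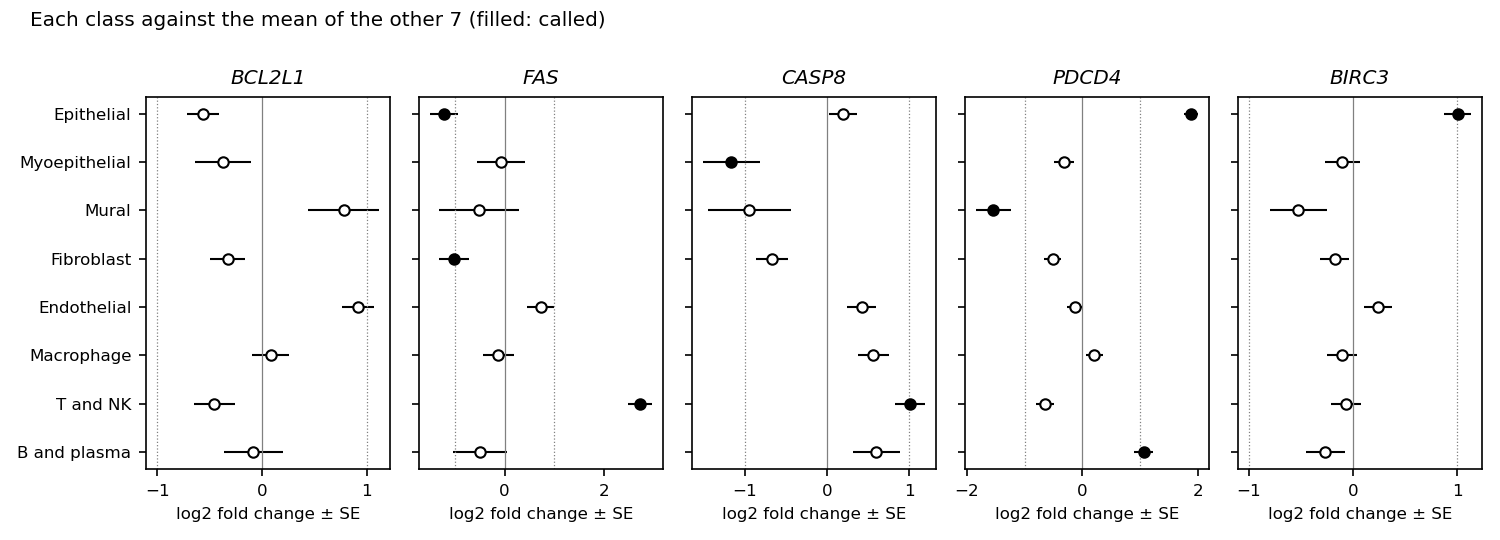
Log2 fold change of each class against the mean of the other classes (x axis, bars are SE from edgeR) for the 5 genes that passed the filter on low counts. Filled points are called, dotted lines mark the fold limit. The FAS point of T and NK nuclei at 2.73 and the PDCD4 point of epithelial nuclei at 1.88 lie farthest to the right.

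Other genes of the pathway were read from a list of 40, of which 31 were found and 26 could be tested between classes. In T and NK nuclei 3 were higher and 0 lower. They were FASLG, the ligand of FAS (log2 fold change 5.91 ± 0.34, adjusted p = 1.8e-24), PMAIP1, which encodes the BH3-only protein NOXA (3.08 ± 0.43, adjusted p = 1.3e-08), and CASP10, the close relative of CASP8 (1.201 ± 0.191, adjusted p = 2.6e-07). FASLG ranged from 0 to 62.5 CPM in T and NK nuclei with a median of 35.9 CPM, whereas the epithelial median was 0.295 CPM. The filter on low counts can pass a gene through 1 class alone. Whether FASLG entered in this way was not tested, so its fold change and p are read as a description. FASLG and FAS thus had their highest class median in the same gate. CASP10 did not, with medians of 99.3 CPM in T and NK nuclei and 143 CPM in B and plasma nuclei. The median over the 26 genes in T and NK nuclei was 0.28, against -0.003 over all genes tested. It departed in other classes too, for instance with 0.24 against 0.02 in macrophages and -0.56 against -0.19 in myoepithelial nuclei. Of all genes 8.18% were called higher and 9.28% lower in T and NK nuclei.

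Macrophages had 4 genes higher and 0 lower, led by the survival gene BCL2A1 (3.15 ± 0.34, adjusted p = 1.5e-12), PMAIP1 (2.38 ± 0.51, adjusted p = 8.2e-05) and CASP10 (1.21 ± 0.19, adjusted p = 1.4e-07). Of all genes 11.8% were higher in macrophages, a share near that of the list, and 9.96% were lower. Whether BCL2A1 passed the filter on low counts through 1 class alone was not tested. Its fold changes and p in all classes of nuclei are therefore read as a description. In endothelial nuclei 2 were higher, against 11.3% of all genes, led by the TNF receptor gene TNFRSF1A (1.65 ± 0.17, adjusted p = 3.0e-13). In B and plasma nuclei 3 were higher and 1 lower, against 6.15% and 5.07% of all genes, the leading ones being MDM2, which encodes the ubiquitin ligase of p53 (1.96 ± 0.19), BCL2A1 (1.85 ± 0.66) and CASP10 (1.45 ± 0.27). Epithelial nuclei had 2 higher and 2 lower, against 12.8% and 13.4% of all genes. CASP6, an executioner caspase, was higher there (1.39 ± 0.13, adjusted p = 1.4e-14), and CASP10 (-1.66 ± 0.20, adjusted p = 6.8e-11) and BCL2A1 (-1.58 ± 0.52, adjusted p = 0.0067) were lower. Epithelial CASP6 ranged from 139 to 317 CPM. Both mural genes called were lower, CASP6 (-2.07 ± 0.40) and MDM2 (-1.57 ± 0.41), as were the 3 myoepithelial ones, CASP10 (-2.43 ± 0.44), BNIP3 (-1.65 ± 0.50) and CFLAR (-1.39 ± 0.18). Of all genes 3.61% were lower in mural and 6.47% in myoepithelial nuclei. In fibroblasts 0 genes of the list were called, against 10.6% of all genes higher and 2.73% lower. Of the 22 calls of the list over all classes, 16 could be fitted without the L20 glands, all in the same direction, and 14 were still called. The 2 that fell short of the fold limit were the epithelial ones of CASP6 (0.90) and of BMF, which encodes a BH3-only protein (0.86 against 1.06 with all glands). PMAIP1 was 2.23 in T and NK nuclei and 1.61 in macrophages without these glands, and FASLG, BCL2A1 and the mural genes could not be fitted.

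Across the stages, which the study compared to follow the gland from pregnancy to regression, no level of the 6 genes was called different. For PDCD4 and BIRC3 the 2 glands of L20 and of PI2 spanned those of L0 and PI7. In the whole gland PDCD4 measured 305 and 463 CPM (G90), 566 and 603 CPM (L0), 788 and 397 CPM (L20), 444 and 991 CPM (PI2), and 694 and 715 CPM (PI7). BIRC3 measured 316 and 368 CPM (G90), 383 and 544 CPM (L0), 664 and 196 CPM (L20), 349 and 769 CPM (PI2), and 359 and 436 CPM (PI7). For both genes the 2 glands of L20 and of PI2 lay farther apart than the means of most stages. BCL2L1 was 52.2 and 25.8 CPM (G90), 24.3 and 25.5 CPM (L0), 35.3 and 62.1 CPM (L20), 37.5 and 33.8 CPM (PI2), and 52.8 and 41.0 CPM (PI7), so its highest glands were of L20, PI7 and G90. CASP8 was lowest in L0 replicate 2 at 31.5 CPM and highest in PI2 replicate 2 at 91.4 CPM. Its mean ± SD over 2 glands was 39.05 ± 8.6 CPM at G90 and 36.66 ± 7.23 CPM at L0. The later stages had 58.28 ± 13.35 CPM (L20), 66.33 ± 35.52 CPM (PI2) and 54.97 ± 5.55 CPM (PI7). The CASP8 glands of G90 and L0 thus lay below those of L20 and PI7, but no CASP8 difference between stages was called.

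FAS measured 12.7 and 5.23 CPM (G90), 17.4 and 11.8 CPM (L0), 21.7 and 19.7 CPM (L20), 7.22 and 14.9 CPM (PI2), and 29.8 and 23.4 CPM (PI7) in the whole gland. Both PI7 glands lay above the other 8 and both L20 glands above those of G90, L0 and PI2. No FAS difference between stages of the whole gland was called. How many of all genes separate glands by stage in this way was not counted, for this or the other genes described.

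BAK1 was the only one of the 6 whose whole-gland level in involution exceeded the mean of lactation in each gland. It measured 4.47 and 2.39 CPM at G90, 2.42 and 1.81 at L0 and 8.10 and 5.51 at L20, against 6.30 and 10.9 at PI2 and 7.70 and 6.53 at PI7, so the 4 glands of G90 and L0 lay below the 6 of L20, PI2 and PI7, and the L20 glands were in or near the involution range. The log2 fold change of involution (PI2 and PI7) over lactation (L0 and L20) was 0.86 ± 0.45, which did not pass (adjusted p = 0.78). Against L0 alone it was 1.48 (adjusted p = 0.29), so the value depended on the L20 glands, and it was not called either. For the other 5 genes this value was 0.11 ± 0.32 for BCL2L1, -0.18 ± 0.41 for FAS, 0.23 ± 0.43 for CASP8, 0.09 ± 0.46 for PDCD4 and -0.13 ± 0.52 for BIRC3. Against L0 alone these were 0.30, -0.16, 0.35, -0.10 and -0.35 in the same order, with 0 called. Over all 5 stage contrasts of the whole gland, 0 of 30 tests of these genes were called by edgeR, the background being 0% of 22695 genes in each contrast. At an unadjusted p under 0.05 there were also 0 of 30, against 2.04% to 12.8% of all genes by contrast. DESeq2 called 0 of the 30 as well, while over all genes it called 13 to 1157 by contrast.

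The epithelial-gated nuclei gave the same count of calls with cell composition held closer to constant. PDCD4 there measured 355 and 480.2 CPM (G90), 583 and 616 CPM (L0), 886 and 1289 CPM (L20), 539 and 1044 CPM (PI2), and 1199 and 960.0 CPM (PI7). The 2 G90 glands were the lowest of the 10, and the L0 over G90 difference was 0.84 ± 0.47 on the log2 scale (adjusted p = 0.56). BIRC3 measured 345 and 375 CPM (G90), 383 and 550.3 CPM (L0), 699.6 and 395 CPM (L20), 373 and 826 CPM (PI2), and 457 and 495 CPM (PI7). Involution and lactation did not separate for either gene, with log2 fold changes of 0.02 ± 0.33 for PDCD4 and -0.13 ± 0.40 for BIRC3, or 0.24 and -0.18 against L0 alone. FAS had the largest of the 6 values at -0.72 ± 0.46 (unadjusted p = 0.14, adjusted p = 0.62 in edgeR), and -0.73 against L0 alone. BAK1 was 0.56 ± 0.49, and 1.19 against L0 alone. CASP8 was 0.12 ± 0.42 and BCL2L1 0.05 ± 0.29, and against L0 alone 0.34 and 0.08, and 0 of the 6 were called either way. The low BIRC3 level of 196 CPM in the whole gland of L20 replicate 2 stood beside 395 CPM in its epithelial nuclei, of which this gland had only 1245.

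FAS was the gene nearest to a stage difference in epithelial nuclei. It measured 4.90 and 3.70 CPM (G90), 14.5 and 10.4 CPM (L0), 21.0 and 9.06 CPM (L20), 5.52 and 13.2 CPM (PI2), and 10.9 and 9.40 CPM (PI7). Both G90 glands lay below the other 8. The L0 over G90 difference was 1.91 ± 0.66 on the log2 scale with an unadjusted p of 0.016 in edgeR, but it did not pass after adjustment (adjusted p = 0.29, from 0.0398 to 0.99 over the alternatives). It was called when only the glands of these 2 stages were fitted (adjusted p = 0.0398), a fit that called 942 genes in all. Over the 5 contrasts 0 of 30 tests were called, FAS at L0 over G90 was the 1 test under an unadjusted p of 0.05 (11.4% of all genes in that contrast), and DESeq2 called 0 of the 30 and 8 to 910 of all genes by contrast. The background was 0.00512% of 19534 genes at L0 over G90, a single gene, and 0% in the other 4 contrasts.

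**Figure D3:**
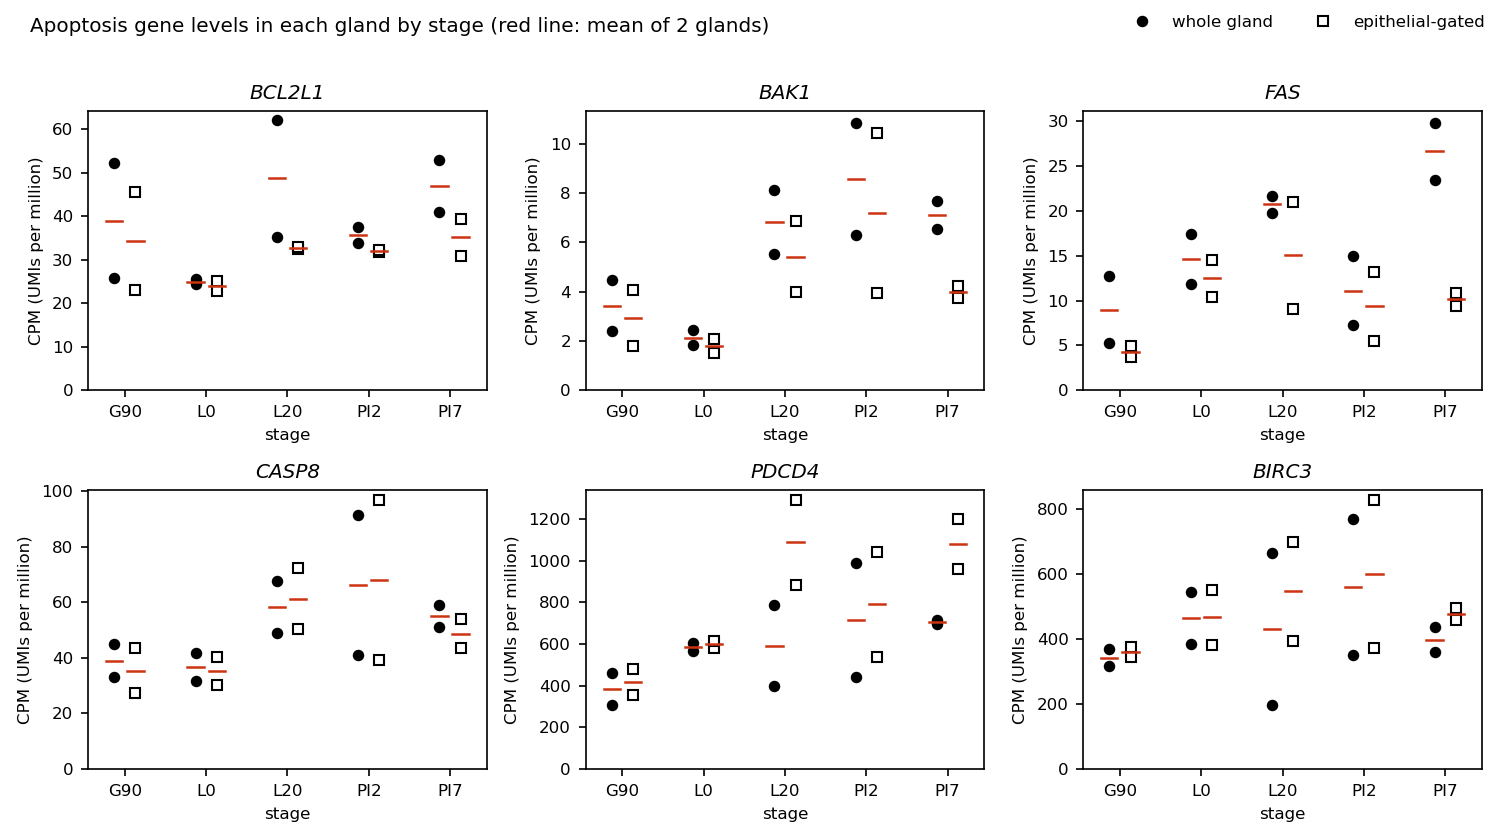
Level of the 6 genes in each gland by stage, in CPM on linear axes from 0, for all nuclei (filled circles) and for epithelial-gated nuclei (open squares). Red lines are means of 2 glands. The 2 glands of L20 and of PI2 lie far apart for PDCD4 and BIRC3, and the epithelial FAS levels of G90 are the lowest.

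In the other cell classes, 0 of 24 tests of involution against lactation were called by edgeR, against 0% of all genes in fibroblast, endothelial, macrophage and T and NK nuclei and 0.304% in myoepithelial nuclei. At an unadjusted p under 0.05 there was 1, FAS in endothelial nuclei (-0.98 ± 0.45, unadjusted p = 0.0499, adjusted p = 0.89), where 5.34% of all genes passed that limit, with 5.48% to 6.58% in the other 4 classes. The 4 steps between adjacent stages gave 0 calls of these genes in these classes as well. Over all genes the called share there was 0% in fibroblast and endothelial nuclei. It was 0.0116% at L0 over G90 and 0.0349% at L20 over L0 in macrophages, and 0.0131% at L0 over G90 in T and NK nuclei. In myoepithelial nuclei it was 0.178% at L0 over G90, 0.228% at L20 over L0, and 0.0507% in both later steps. Endothelial FAS measured 23.0 and 32.2 CPM (G90), 97.3 and 109.6 CPM (L0), 34.6 and 9.48 CPM (L20), 11.4 and 14.1 CPM (PI2), and 53.9 and 42.2 CPM (PI7). The glands of L0, with 220 and 101 endothelial nuclei, stood above all others. How many of the 12519 genes set a stage apart in this way was not counted, for FAS or for BCL2L1 below. In edgeR the FAS log2 fold change was 1.86 ± 0.62 for L0 over G90 (adjusted p = 0.87). For L20 over L0 it was -2.40 ± 0.64 (unadjusted p = 0.0025, adjusted p = 0.70). It was also 1.92 ± 0.66 for PI7 over PI2 (unadjusted p = 0.012, adjusted p = 0.9999). None was called, with a background of 0% of 12519 genes in each. Endothelial BCL2L1 was 59.9 and 58.4 CPM at L0, the lowest 2 of the 10 glands, against 111 and 134 at G90 and 116 and 108 at L20, and it was not called either. In macrophages FAS was 0 CPM in both L0 glands, which had 52 and 42 macrophage nuclei, 14.2 and 17.9 CPM at G90, and 29.7 and 31.7 CPM at L20. The 0 UMIs at L0 allow up to 39.3 and 47.6 CPM (3 UMIs in each gland), so neither gland alone is set apart from the other stages. For L20 over L0 in macrophages, the highest log2 fold change of the 5 genes tested was 8.04. Of these 5, 1 had an unadjusted p under 0.05 in edgeR, as had 10.2% of all genes, and 0 were called (lowest adjusted p = 0.41).

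Whether the involution effect itself differed between epithelial nuclei and another class was tested with an interaction term. It differed for 0 of the 6 genes in edgeR (24 tests, 1 at an unadjusted p under 0.05 against 9.92% to 10.9% of all genes by class, the lowest adjusted p being 0.48). Over all genes 0.28% differed for fibroblasts, 0.412% for endothelial nuclei, 0.124% for macrophages and 0.066% for T and NK nuclei. Of the pathway list, TNFRSF1A passed in endothelial nuclei (log2 difference -1.55 ± 0.32, adjusted p = 0.019).

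Hormone-sensing epithelial nuclei, those with at least 2 of the markers ESR1, PGR, FOXA1, CITED1, TBX3 and AREG, were compared with epithelial nuclei that had none of these. BIRC3 was lower in the hormone-sensing nuclei in 10 of 10 glands, ranging from 198 to 421 CPM against 350.1 to 839.8 CPM. The log2 fold change was -0.66 ± 0.12 (adjusted p = 0.0017), past the p limit and short of the fold limit, and -0.60 without the L20 glands (adjusted p = 0.015). Without the sow as a block it was -0.67 and missed the p limit (adjusted p = 0.15, from 6.3e-06 to 0.15 over the alternatives). Hormone-sensing nuclei, which must show 2 markers, were deeper in every gland, with medians of 3557.5 to 6224.5 UMIs against 1540 to 2939, a ratio of 1.70 to 3.04, and the part of depth in these differences was not tested. FAS was lower in 9 of 10 glands (-0.65 ± 0.23, adjusted p = 0.057), PDCD4 in 9 (-0.24 ± 0.09, adjusted p = 0.083) and CASP8 in 8 (-0.36 ± 0.17, adjusted p = 0.14). BCL2L1 (-0.23 ± 0.16) and BAK1 (-0.02 ± 0.39) were lower in 7 glands each. In edgeR 0 of the 6 were called, against 5.56% of 12088 genes, and 4 had an unadjusted p under 0.05, a limit that 33.9% of all genes passed.

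BIRC3 was spread unevenly among epithelial nuclei. The 1% of epithelial nuclei with the most BIRC3 UMIs held 11.8% to 22.2% of all BIRC3 UMIs of a gland, and the single highest nucleus had 80. For PDCD4 the corresponding 1% held 5.29% to 9.03%, while the deepest 1% of nuclei held 3.26% to 5.88% of all UMIs. Nuclei were then split by CXCL10, an interferon and NF-κB induced chemokine gene that was picked after its values had been seen. BIRC3 was higher in nuclei with a CXCL10 UMI in 9 of 10 glands, with a median ratio of 2.63 and a range of 0.978 to 4.89. In G90 replicate 2, which had 1428 such nuclei, it was 1263 against 259 CPM. The exception was L20 replicate 1 with 684 against 699.6 CPM, from 27 nuclei with CXCL10. Other glands also rested on few such nuclei, with 3 in PI2 replicate 1 (7 BIRC3 UMIs), 14 in L20 replicate 2 and 26 in G90 replicate 1. How many of all genes were higher in these nuclei was not counted. PDCD4 was higher in 4 of 10 glands, with ratios from 0.842 to 1.25. Nuclei with a CXCL10 UMI were also deeper in most glands, for instance with medians of 3378 against 2698 UMIs in G90 replicate 2, and the part of depth in these ratios was not tested.

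**Figure D4:**
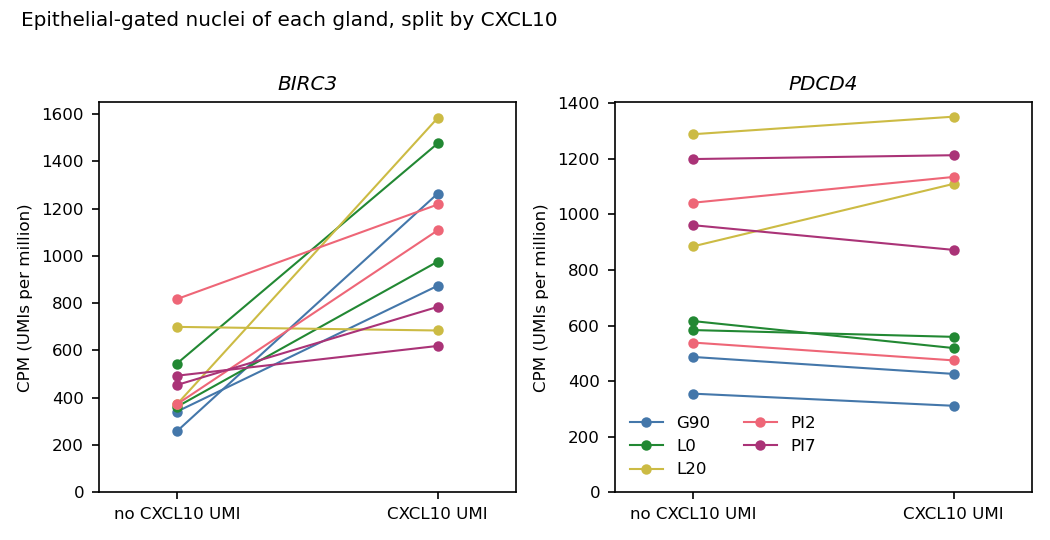
BIRC3 and PDCD4 levels in epithelial-gated nuclei without and with a CXCL10 UMI, in CPM on linear axes from 0. Each line joins both values of 1 gland and is coloured by stage. BIRC3 lines go up in 9 of 10 glands and PDCD4 lines in 4.

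Genes whose level followed each member most closely were found by the Pearson correlation of log2(CPM + 1) over 71 sums of a class in a gland, among 8272 genes. These sums share sows and depth, so the values are a description. BIRC3 was most like the lactoferrin gene LTF (r = 0.72) and PLEKHD1 (0.64), and PDCD4 was most like TNS3 (0.75), TBC1D8 (0.72) and USP43 (0.69). BCL2L1 was most like HRH4 (0.79), AGPAT5 (0.70) and WDR47 (0.69). CASP8 was close to ZNF131 (0.75) and RECQL (0.72), and FAS was most like PRPS2 (0.67), MRPL4 (0.64) and SCO1 (0.63). For BAK1 the closest genes, TM7SF3 (0.57), C12orf29 (0.55) and SH3BGRL3 (0.54), were less similar.

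Milk cells were read from 1 library each, so the differences below have no replicate check and the 95% intervals cover counting error only. After the same filters the L0 milk held 17571 cells and the L20 milk 14514. Of these, 2840 and 1222 were gated as epithelial cells, 1496 and 2690 as macrophages and 324 and 1127 as T and NK cells, and many were in no class. A further 5772 and 2943 were gated as granulocytes. The summed level of the 5 granulocyte markers found was 36900 and 17942 CPM in that gate. In the macrophage gate the macrophage markers summed to 8499 and 6466 CPM and the granulocyte markers to 4124 and 6396 CPM, so that at L20 both lists were nearly level there. ERBB3, an epithelial marker, was also found outside epithelial cells, at 5054 and 5484 CPM in T and NK cells, 1256 and 1582 CPM in macrophages, and 249.5 and 237 CPM in granulocytes, beside 1276 and 1871 CPM in epithelial cells. With ERBB3 left out of the gates, the levels of the 6 genes in the 4 main classes moved by factors of 0.887 to 1.26. The gland gates and the epithelial-rich spots of the sections also used ERBB3 and were not rebuilt without it.

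BIRC3 had its highest level of the 4 main milk classes in granulocytes. It measured 1502 CPM at L0 and 4584 CPM at L20 in these cells, a ratio of 3.05 (2.98 to 3.13). Ungated milk cells held 995 and 2526 CPM, a ratio of 2.54 (2.49 to 2.59), and 32193 of the 63366 BIRC3 UMIs at L20. T and NK cells held 461 and 462 CPM with a ratio of 1.003 (0.876 to 1.15), macrophages 825 and 731 CPM with a ratio of 0.886 (0.854 to 0.919), and epithelial cells 164 and 249 CPM with a ratio of 1.52 (1.44 to 1.59). The order of classes thus differed from that in the gland, where the epithelial median was highest and too few granulocytes were gated to give a level. Milk values are of whole cells, however, and gland values of nuclei. Caseins took 193788 (L0) and 211712 CPM (L20) in milk epithelial cells. The part of both in the order of classes, for BIRC3 or the other genes, was not tested.

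FAS in granulocytes was 37.4 CPM at L0 and 247 CPM at L20, a ratio of 6.60 (5.76 to 7.58). In T and NK cells it was 64.6 and 101 CPM, a ratio of 1.56 (1.102 to 2.27), and in epithelial cells 2.01 and 9.35 CPM, a ratio of 4.64 (3.42 to 6.27) whose interval overlapped with that of granulocytes. At L0 the T and NK cells had the highest FAS level of the 4 classes, as in the gland, and at L20 the granulocytes had. Ungated milk cells held 32.2 and 121 CPM of FAS, a ratio of 3.78 (3.42 to 4.17). FASLG was 54.4 and 51.2 CPM in T and NK cells and 0 UMIs in the granulocytes of both libraries. CASP8 was also highest in T and NK cells, at 47.6 and 37.8 CPM, and lowest in epithelial cells, at 8.27 and 9.23 CPM.

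PDCD4 kept its epithelial bias in milk. Epithelial cells held 205 CPM at L0 and 380.4 CPM at L20, a ratio of 1.85 (1.78 to 1.93), T and NK cells held 124 and 93.8 CPM, a ratio of 0.756 (0.575 to 1.003), and macrophages held 67.9 and 19.8 CPM, a ratio of 0.292 (0.249 to 0.343). In the same macrophage gate caseins went from 7074 to 728 CPM and the 10 epithelial markers other than ERBB3 from 89.2 to 17.9 CPM, and their part in the macrophage ratio was not tested. Granulocytes held 17.2 and 10.9 CPM. Over all milk cells PDCD4 went the other way from its epithelial level, from 150.3 to 101 CPM, a ratio of 0.672 (0.649 to 0.696). Epithelial cells held 51646933 of 80995806 kept UMIs at L0 and 8560300 of 42948881 at L20. They held 10605 of the 12172 PDCD4 UMIs at L0 and 3256 of 4340 at L20. The part of this change in cell make-up in the ratio over all cells was not tested. The median depth of epithelial cells differed strongly between the libraries, with 16751 UMIs at L0 and 2474 at L20, and its part in these ratios was not tested. BCL2L1 went down in epithelial cells from 13.7 to 7.36 CPM, a ratio of 0.538 (0.409 to 0.696), and up in granulocytes from 23.4 to 55.2 CPM, a ratio of 2.36 (1.92 to 2.91). BAK1 was 16.2 and 30.2 CPM in macrophages, a ratio of 1.86 (1.45 to 2.42). The part that the rising granulocyte markers of that gate have in the macrophage ratios was not tested.

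Of the pathway list, the granulocytes of milk were rich in the survival gene BCL2A1, at 871 CPM at L0 and 814 CPM at L20, and in CFLAR, which encodes the inhibitor of CASP8 activation, at 555 and 891 CPM. Epithelial cells held 23.7 and 29.7 CPM of BCL2A1. CASP6 was 51.1 and 67.4 CPM in epithelial cells and 4.44 and 3.91 CPM in granulocytes. It was 71.4 and 69.9 CPM in T and NK cells and 31.3 and 55.6 CPM in macrophages, so epithelial cells did not have its highest level in milk.

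**Figure D5:**
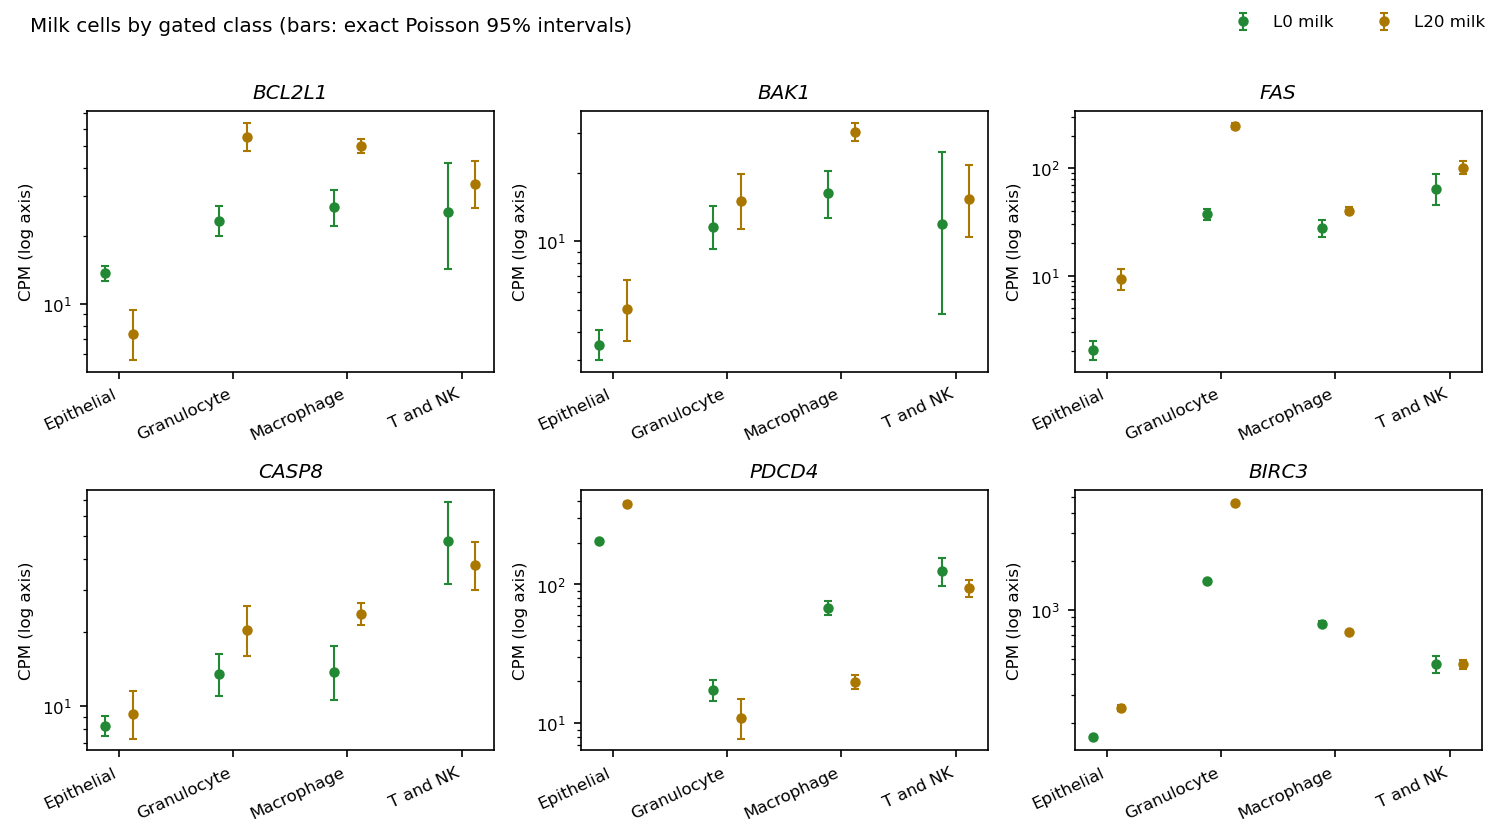
Level of the 6 genes in 4 gated classes of milk cells, in CPM on a log axis, for the L0 and the L20 library. Bars are exact Poisson intervals at 95% that cover counting error only. BIRC3 and FAS are higher at L20 in granulocytes, and PDCD4 is highest in epithelial cells of both libraries.

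The sections, 4721 spots of G90 and 2248 of PI2, are also single samples. A spot can hold several cells, and the 10% of spots with the largest share of a class's marker UMIs were set against the other spots. PDCD4 was higher in epithelial-rich spots in both, at 255 against 178 CPM at G90, a ratio of 1.43 (1.33 to 1.53), and 491 against 162 CPM at PI2, a ratio of 3.04 (2.81 to 3.28). BIRC3, under the BIRC2 symbol there, was 143 against 86.9 CPM at G90 and 152 against 65.6 CPM at PI2, ratios of 1.64 (1.49 to 1.80) and 2.31 (2.02 to 2.65). BCL2L1 was higher in endothelial-rich spots at G90, with a ratio of 1.36 (1.15 to 1.59), but not detectably at PI2, where it was 1.03 (0.80 to 1.32). FAS in T and NK-rich spots of G90 was 4.97 against 2.63 CPM, a ratio of 1.89 (1.08 to 3.14), and at PI2 the ratio was 1.102 (0.51 to 2.11). In B and plasma-rich spots the FAS ratio was 1.92 (1.14 to 3.09) at G90 and 1.56 (0.90 to 2.58) at PI2. CASP8 was not detectably higher in T and NK-rich spots of G90, with a ratio of 1.02 (0.75 to 1.37), and at PI2 it was 1.62 (0.83 to 2.90). In B and plasma-rich spots the CASP8 ratio was 1.52 (1.19 to 1.93) at G90 and 1.303 (0.70 to 2.26) at PI2. Endothelial-rich spots were the only ones of 6 kinds whose CASP8 interval lay above 1 in both sections, with 1.48 (1.06 to 2.02) and 2.10 (1.01 to 3.92). The PI2 value rested on 11 CASP8 UMIs in these spots, and CASP8 was not called in endothelial nuclei against the other classes.

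Between the whole sections, FAS was 2.83 CPM at G90 and 6.42 CPM at PI2, a ratio of 2.27 (1.75 to 2.96), and CASP8 was 13.2 and 5.92 CPM, a ratio of 0.447 (0.360 to 0.551). BCL2L1 was 55.3 and 71.3 CPM, PDCD4 185 and 194 CPM, BIRC3 91.6 and 74.1 CPM, and BAK1 27.7 and 27.9 CPM with a ratio of 1.01 (0.91 to 1.12). MCL1 was listed with 0 UMIs in both sections. By counting error alone this would allow up to 0.0701 CPM at G90 and 0.168 CPM at PI2, but whether reads of this gene were assigned to its identifier was not tested, so no level of MCL1 is read from it.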

How the data were processed

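Nuclei of 10 glands (2 sows per stage), 2 milk samples and 2 sections were used. The authors aligned reads to Sscrofa11.1 with CeleScope or, for sections, Space Ranger, and deposited raw UMI counts per gene and barcode. The members and lists were chosen with earlier results of these data known. Barcodes with under 300 genes or over 25% mitochondrial UMIs were removed. A nucleus was gated into the class with the most markers detected, at least 2, where every other class had at most 0.5 times as many. No doublet caller was run, and doublets that pass this gate were kept. UMIs were summed per gland and class with at least 20 nuclei and tested with edgeR 4.0.16 (TMM, filterByExpr, quasi-likelihood) in R 4.3.3, with Benjamini-Hochberg adjustment over all genes. DESeq2 1.42.0 was an alternative. The genes named are the 9 members, up to 3 called pathway genes per comparison with the largest fold change, and the 3 most correlated genes per member, a few of which are not reported here. CXCL10 was added after seeing values. Milk and sections were given as CPM with exact Poisson intervals, ratios with exact binomial ones. The fit was checked on simulated epithelial sums with large changes in well-counted genes only. That setting does not cover sparse genes or small changes.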

Additional observations from a re-analysis of the deposited data

Results flagged for a closer look

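Of 66 groups of 4 to 10 glands that were screened for a value far from the others, 8 held such a value, and chance alone gives about 1 in 20. In epithelial nuclei of involution, BCL2L1 was 39.3 CPM in PI7 replicate 1 against 30.9 to 32.2 CPM in the other 3 glands, and BAK1 was 10.4 CPM in PI2 replicate 2 against 3.73 to 4.22 CPM. In myoepithelial nuclei, BAK1 was 36.2 CPM in PI2 replicate 1, from 4 UMIs, against 0 to 15.3 CPM. Of the 6 glands at 0, 5 allow 44.2 to 99.8 CPM each (3 UMIs), so the gap to these was within depth. PI7 replicate 1, also at 0, allows only 14.7 CPM. CASP8 was 134 CPM in myoepithelial nuclei of PI2 replicate 2, from 6 UMIs, against 0 to 54.9 CPM, and the 2 glands at 0 allow 99.4 and 99.8 CPM. PDCD4 was 393 CPM in fibroblasts of L20 replicate 1 against 113 to 243 CPM, and 458 CPM in macrophages of L0 replicate 1 against 269 to 365 CPM. CASP8 was 0 CPM in the 34 T and NK nuclei of L20 replicate 1, which allows up to 101 CPM, against 64.1 to 133 CPM. BAK1 was 15.6 CPM in B and plasma nuclei of PI2 replicate 2, a single UMI, against 0 to 5.25 CPM, and the glands at 0 allow 28.9 to 133 CPM each, so this value was set by depth.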

How the results depend on the processing

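No gene of the group was called between stages under any alternative except FAS in epithelial nuclei when only the glands of 2 stages were fitted (1 call, L0 over G90). In the other classes DESeq2, a fit with no filter and fits of only the stages compared, all chosen after seeing the data, called 0 of 120, 150 and 105 tests. Endothelial FAS had no adjusted p in DESeq2 at L0 over G90, and 0.099 at L20 over L0. DESeq2 called 392 (L0 over G90) and 1157 (L20 over L0) genes in the whole gland, edgeR 0, and 844 and 910 in epithelial nuclei, edgeR 1 and 0. Without the filter on low counts edgeR called 33 and 269 genes in the whole gland and 268 and 347 in epithelial nuclei. Without a fold limit, 16 of 40 class tests passed and 1 hormone-sensing test (BIRC3). Removing nuclei under 500 genes or over 5% mitochondrial UMIs left 5 class calls. Leaving out 1 gland at a time left 5 to 8, the 5 without PI7 replicate 1, when mural nuclei came from too few glands. Taking all deposited barcodes of milk moved the level over all cells from 13.4 to 16.0 (L0) and from 78.5 to 103.5 CPM (L20) for FAS, from 150.3 to 144 and from 101 to 94.0 for PDCD4, and from 498 to 612 and from 1475 to 1859 for BIRC3. Same-numbered glands of different stages deviated with correlations from -0.52 to 0.39, above 0.1 in 2 of 10 pairs. No common pairing by number was seen, but whole-gland values of 2 glands per stage could not exclude one. With the replicate number as a block, 0 members were called in every stage fit, and without the sow as a block 8 in the class comparison and 0 in the hormone-sensing one. The block turned PDCD4 in involution over lactation to -0.0023 (whole gland) and -0.0075 (epithelial). PDCD4 also changed sign against L0 alone (-0.10, whole gland) and with the stricter filters (-0.0034, epithelial), and BAK1 in hormone-sensing nuclei without the L20 glands (0.11). None of these was called and the cause was not tested. Leaving out 1 gland changed the sign of further values that were not called. For the whole gland these ranged from -0.53 to 0.033 (FAS), -0.31 to 0.58 (PDCD4), -0.52 to 0.67 (BIRC3) and -0.16 to 0.54 (CASP8). In epithelial nuclei they ranged from -0.34 to 0.30 (PDCD4), -0.57 to 0.27 (BIRC3), -0.38 to 0.43 (CASP8) and -0.048 to 0.19 (BCL2L1). BAK1 in hormone-sensing nuclei ranged from -0.33 to 0.17. FAS in T and NK nuclei and PDCD4 in epithelial and mural nuclei stayed called in all alternatives that could be fitted. A gate of 3 markers could not be fitted for myoepithelial nuclei. With 2 sows per stage and a coefficient of biological variation of 0.555, only large stage differences can be called.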
